A study of Homo sapiens with 22 samples.

Results

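The BCL2 family genes described here are BCL2, BCL2L1, MCL1, BCL2A1, BCL2L11, BAX, BAK1, BBC3, PMAIP1 and BID, 10 of the 19974 protein-coding genes on the autosomes and X. They were chosen by name, with earlier results of these data known. For each one, every ATAC-seq peak called within the gene body or 20 kb either side was taken, peak by peak and as the number of bases covered. ATAC-seq cuts open chromatin with the Tn5 transposase, so a called peak marks a stretch of accessible DNA. Peaks were called in 22 libraries of the multiple myeloma cell lines KMS34 (10 libraries) and KMS11 (12 libraries), each group with 2 libraries. The groups in each line were cells given NSD2LDD, a compound used to degrade the histone methyltransferase NSD2, at day 4 and day 10, their DMSO vehicle controls at the same days, and cells at day 0, for which the labels name no treatment. The labels give all of these the genotype t(4;14), a translocation that drives NSD2 from the immunoglobulin heavy chain locus. A further KMS11 group at day 0 has the genotype TKO; the sources used here give neither the meaning of that label, nor whether it is 1 clone, nor the concentration of NSD2LDD. The libraries of a group are numbered as duplicates and nothing says that they came from separate cultures, so the spread behind each p-value may be technical.

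Proteins of the BCL2 family decide whether the outer membrane of the mitochondrion is opened, the step that releases cytochrome c and starts the caspase cascade. BCL2, BCL2L1 (BCL-XL), MCL1 and BCL2A1 keep it closed, BAX and BAK1 are the effectors that form the pores, and the BH3-only proteins BCL2L11 (BIM), BBC3 (PUMA), PMAIP1 (NOXA) and BID relay death signals to the other members. Plasma cells depend on MCL1 for survival, and myeloma cells differ in which of the protective members they rely on.

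Of the 10 genes, 9 had a listed start and MCL1 had none. Chromatin was accessible at the start of most of these 9 genes in both lines. A called peak lay over a start of BCL2, BCL2L1, BCL2L11, BAX, BAK1 and PMAIP1 in all 22 libraries, which 49.7% of the 15812 genes with a listed start also showed. No library had a peak at the start of BCL2A1 or at the listed start of BBC3, as for 33.0% of the genes. The promoters of PMAIP1, BAX and BCL2L11, with a peak in all 22 libraries, and of BCL2A1, with a peak in none, are printed below because they hold the motifs described next; they do not stand for all starts with or without a peak. Each is the 250 bases before the start (RefSeq, GRCh38.p14), 5′ to 3′ on the strand of the gene. Capitals mark the GC box GGGCGG in PMAIP1 (chr18:59899746-59899995, plus strand) and BCL2L11 (chr2:111120664-111120913, plus strand), the E-box CACGTG in BAX (chr19:48954625-48954874, plus strand), and the TATA box TATAAA in BCL2A1 (chr15:79971197-79971446, minus strand).
PMAIP1: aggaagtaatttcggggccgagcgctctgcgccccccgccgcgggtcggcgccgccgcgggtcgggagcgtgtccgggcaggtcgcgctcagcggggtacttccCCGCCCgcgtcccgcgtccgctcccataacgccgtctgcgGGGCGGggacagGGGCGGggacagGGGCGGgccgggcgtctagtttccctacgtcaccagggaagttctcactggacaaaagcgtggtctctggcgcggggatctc
BAX: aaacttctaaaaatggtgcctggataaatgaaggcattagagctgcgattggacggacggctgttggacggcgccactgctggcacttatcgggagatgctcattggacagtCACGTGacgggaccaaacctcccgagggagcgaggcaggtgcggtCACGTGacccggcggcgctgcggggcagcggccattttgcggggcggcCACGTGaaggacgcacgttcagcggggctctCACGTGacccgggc
BCL2L11: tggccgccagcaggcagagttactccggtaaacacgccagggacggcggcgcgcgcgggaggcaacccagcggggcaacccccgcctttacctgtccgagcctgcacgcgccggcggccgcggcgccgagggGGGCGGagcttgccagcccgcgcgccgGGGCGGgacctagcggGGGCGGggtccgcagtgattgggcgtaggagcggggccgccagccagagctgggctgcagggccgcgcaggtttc
BCL2A1: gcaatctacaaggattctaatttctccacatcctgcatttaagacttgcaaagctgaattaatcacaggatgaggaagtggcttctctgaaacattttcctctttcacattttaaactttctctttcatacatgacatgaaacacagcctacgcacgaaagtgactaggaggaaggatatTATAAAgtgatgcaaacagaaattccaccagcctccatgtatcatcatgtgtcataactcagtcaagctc

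Both strands were searched, and a match describes letters, not binding. The GC box occurred 4 times before PMAIP1, 3 times before BCL2L11, 2 times before BAK1 and 1 time before BAX. Of the BID starts, those at chr22:17774469 and chr22:17774495, with a peak in 7 and 6 libraries, held 4 each. Those at chr22:17774042 and chr22:17773983, with a peak in 20 libraries each, held 3 and 1. Among the 22132 promoters of the same length, 53.7% held at least 1 GC box. It was in 74.7% of the promoters with a peak in all 22 libraries and in 28.0% of those with a peak in none. The E-box occurred 4 times before BAX and 1 time before BBC3, whose start had no peak. It also occurred 1 time before each of the BID starts at chr22:17773983 and chr22:17774042. At least 1 E-box was held by 7.37% of promoters. The TATA box occurred once before BCL2A1, but also 2 times before the BCL2L1 start at chr20:31723963, which had a peak in all 22 libraries. It was in 9.0% of promoters, in 3.65% of those with a peak in all 22 and in 15.9% of those with a peak in none. Over the 250 bases before the start and 50 after it, GC content was 71.3% at PMAIP1, 67.3% at BAX, 74.7% at BCL2L11 and 41.0% at BCL2A1, and the median promoter had 62.3%. The members did not split cleanly by these features: that BCL2L1 start had a GC content of 52.0% and BAK1 58.7%, both with a peak in all 22 libraries, and neither the BCL2L1 nor the BCL2 start held a GC box.

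The files hold no read counts, so sequencing depth is unknown. The lists held 34165 to 52518 peaks in KMS34 libraries and 24979 to 39002 in KMS11 libraries, and a missing peak may mean a closed site or one too shallow for the caller. In a bulk library, fewer cells with a site open and less opening per cell cannot be told apart. The 10 plasma cell marker genes all had peaks in their windows, 8 of them in all 22 libraries, as had 69.2% of all genes. Of 5 markers each, 4 B cell and 4 erythroid markers also had peaks in all 22. So had 2 T and NK cell, 2 myeloid and 2 stromal markers. These counts do not identify the cell type. At NSD2 itself, covered bases averaged 1174 ± 466 in the TKO and 828 ± 146 in the KMS11 day 0 libraries (SD, n = 2 each), and the gene was not called in any comparison (limma adjusted p of 0.146 or more). Open chromatin over NSD2 says nothing about the amount of its protein or about an edit of the gene, so neither the treatment nor the TKO genotype is checked by it.

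Peaks of the 22 libraries were merged into 96160 regions, and 80 of these touched a BCL2 family window; their coordinates are given in hg38. BCL2 had 25, BCL2L1 10, BCL2L11 and PMAIP1 9 each, BBC3 7, MCL1 and BID 5 each, BAX and BAK1 4 each, and BCL2A1 2. A peak was called in all 22 libraries in 19 of the 80, and in 1 library only in 14. Over all regions, 14.4% were called in all 22. Regions called in at least 2 libraries were 66 of the 80, against 69191 of the 96160 in all. Of the 10 genes, 8 had covered bases in every library, against 69.2% of all genes; the exceptions were BID, covered in 20 libraries, and BCL2A1, covered in 14.

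Among the protective members, BCL2 spreads over 196.74 kb and carried the most covered bases, from 3644 to 12062 per library (median 6678.5). Of these bases, 87.1% lay in the body. BCL2L1 had 2235 to 6727 (median 4778.5), and its regions overlapped the antisense gene BCL2L1-AS1 and the neighbour TPX2. MCL1 had 2739 to 6083 (median 5037), but only 15.2% of these lay in its 5.05 kb body, and the regions outside it overlapped ADAMTSL4, ADAMTSL4-AS1 and LOC107985203. BCL2A1, an NF-kappaB target in lymphoid cells, was the least marked of the 10, with 0 to 545 covered bases (median 311.5) and none in its body in any library. A peak in a window of several genes is assigned to none of them by these data.

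The effector genes are short and had few regions. BAX had 1688 to 2823 covered bases (median 2232), which included a region of 1329 bp over the start of its neighbour FTL. BAK1 had 832 to 2742 (median 2027.5). Both had a peak at their start in every library.

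Among the BH3-only genes, BCL2L11 had 1115 to 3851 covered bases (median 2299) and BBC3 1079 to 3928 (median 3090). BBC3 had no peak at its listed start, but a region of 2953 bp in its body, chr19:47225989-47228941, was called in all 22 libraries; the microRNA genes MIR3190 and MIR3191 lie in it. PMAIP1 had 1396 to 4131 (median 2415), with no other annotated gene in any of its regions. BID had 0 to 2354 (median 1051.5). Its best-covered starts carried a peak in 8 of 10 KMS34 libraries and in 12 of 12 KMS11 libraries.

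Peaks also differed in strength. Ranked by the authors' deposited −log10 q within each library's own list, the strongest peak in the PMAIP1 window stood in the top 2.48 to 10.8% of peaks (median 5.36%), and that of BCL2 in the top 3.77 to 22.6% (median 9.52%). Where BID had a peak, its strongest ranked at 56.7 to 95.2% in KMS34 and at 23.2 to 46.3% in KMS11. The strongest peak of BCL2L11 ran the other way, at 10.1 to 39.2% in KMS34 and at 29.1 to 70.6% in KMS11, with overlap. The strongest peak at BCL2A1 ranked at 39.4 to 96.5%, where it had one. At BID the peaks of KMS34 thus ranked lower in their lists than those of KMS11. The strongest peak in the MCL1 window ranked at 5.87 to 21.4% in KMS34 and at 0.302 to 6.40% in KMS11 (median of all 22 libraries 5.01%). There too KMS34 ranked lower, with overlap between the lines.

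**Figure D1:**
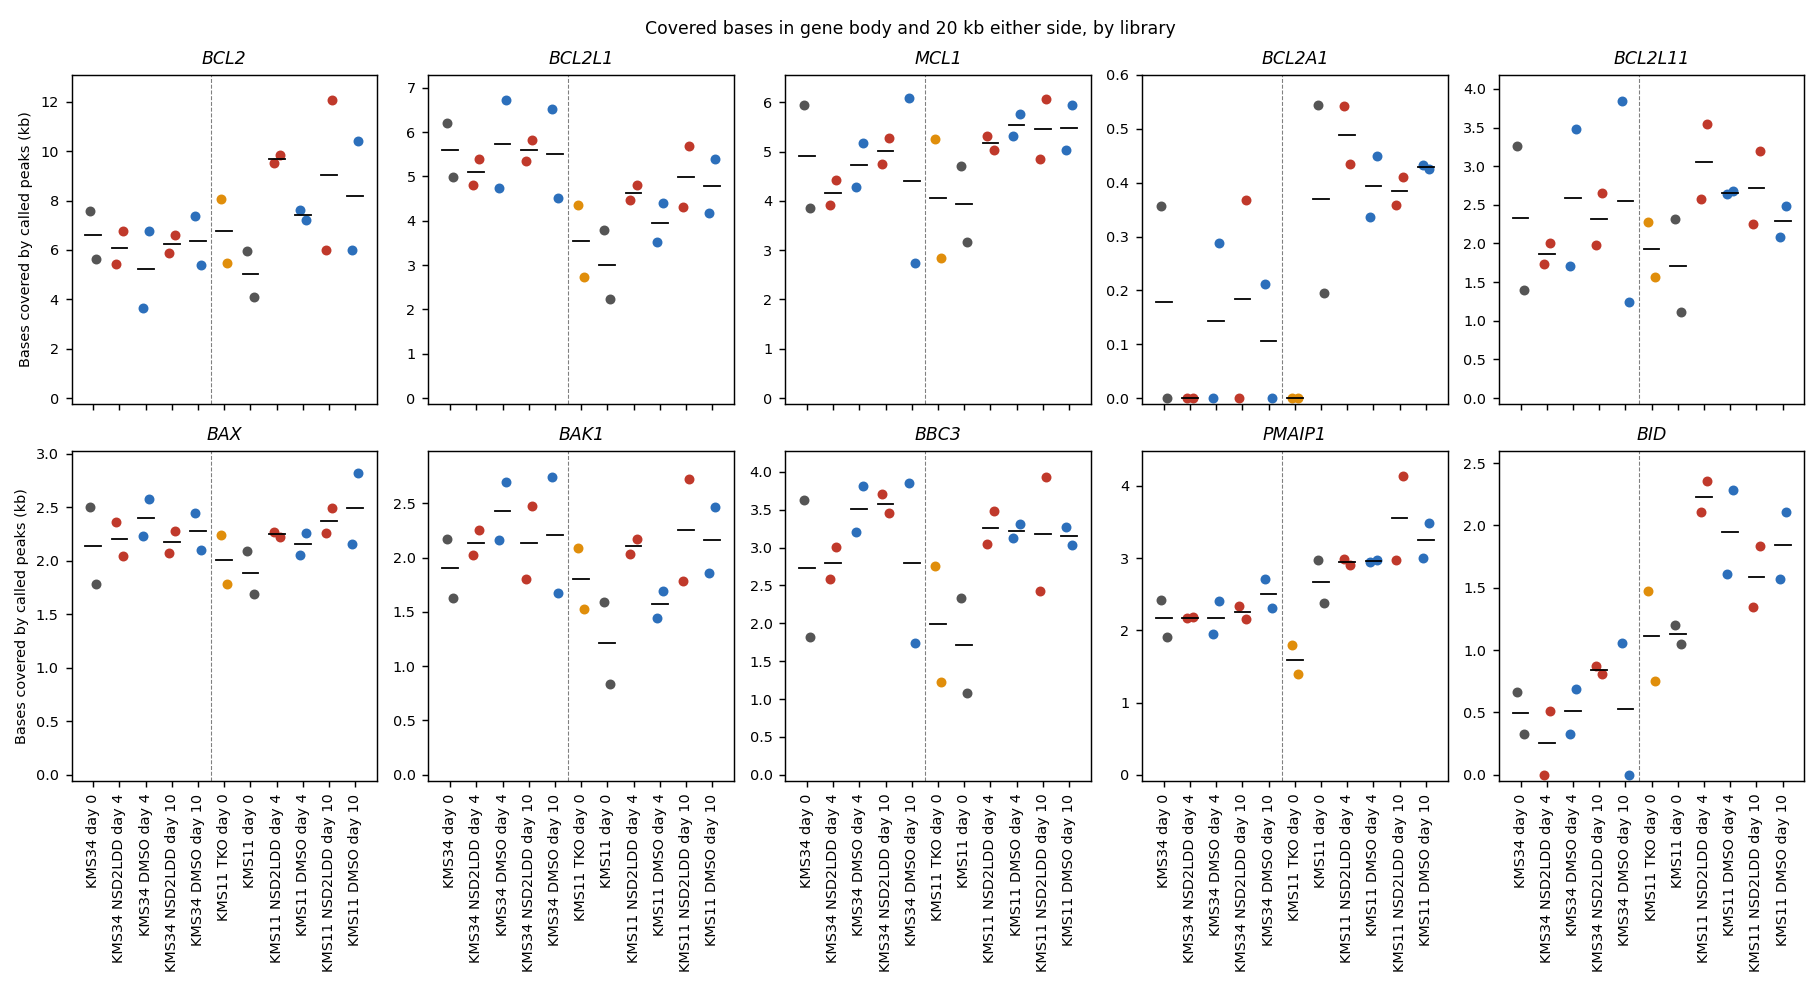
Bases covered by called peaks (kb) in the body and 20 kb either side of each BCL2 family gene, 1 panel a gene with its own scale. Points are the 22 libraries (red NSD2LDD, blue DMSO, orange TKO, grey day 0), bars the means of the 2 libraries of a group, and the dashed line parts KMS34 from KMS11; BCL2A1 is at 0 in both TKO libraries and BID is low in KMS34.

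The first comparison asked whether NSD2LDD changes accessibility at these genes relative to DMSO. No BCL2 family gene was called in either line. In KMS11, with limma on log2 covered bases over all genes (4 libraries against 4, Benjamini-Hochberg), 0 of the 10 passed an adjusted p of 0.05, and 0.011% of the 18226 genes tested did. At an unadjusted p under 0.05, 0 of the 10 and 702 of all genes passed.

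The differences for the 10 genes in KMS11 lay between −0.08 and 0.21 on the log2 scale, with a median of 0.02, against a median of −0.02 over all genes. BCL2 moved most. Its window had 9526 and 9836 covered bases in NSD2LDD at day 4 and 6017 and 12062 at day 10, against 7616 and 7223 in DMSO at day 4 and 5990 and 10419 at day 10. The 4 NSD2LDD libraries overlapped the 4 DMSO libraries, and the day 10 libraries of each group were far apart. The log2 difference was 0.21 ± 0.12 (SE, limma adjusted p = 1.0). BAK1 had 2034 and 2173 in NSD2LDD at day 4 and 1780 and 2722 at day 10, against 1445 and 1693 in DMSO at day 4 and 1860 and 2470 at day 10. These overlapped too, and the difference was 0.18 ± 0.09 (limma adjusted p = 1.0).

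In KMS34, 0 of the 10 were called, against 0.0165% of all genes; at an unadjusted p under 0.05, 0 of the 10 and 1199 of all genes passed. The differences lay between −0.19 and 0.15, with a median of −0.04 against −0.01 over all genes. BCL2A1 had no covered base in 3 of 4 NSD2LDD libraries and 367 in the other, against none in 2 of 4 DMSO libraries and 287 and 212 in the other two. Its difference of −0.19 ± 0.33 (limma adjusted p = 1.0) rests on single libraries, and it turned to 0.14 without the first NSD2LDD library of day 10 and to 0.04 without the second DMSO library of day 4. BCL2 had 5428 and 6768 in NSD2LDD at day 4 and 5889 and 6589 at day 10, against 3644 and 6774 in DMSO at day 4 and 7365 and 5378 at day 10. Every NSD2LDD value lay inside the range of the DMSO values, and the difference was 0.15 ± 0.12 (limma adjusted p = 0.984).

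The effect of NSD2LDD was also compared between the lines, as the KMS34 effect less the KMS11 effect. None of the 10 genes was called, and neither was any gene in all (0.0%); 0 of the 10 and 618 of all genes passed an unadjusted p under 0.05. The largest differences were −0.31 ± 0.27 at BCL2L11 and −0.26 ± 0.13 at BAK1 (limma adjusted p = 1.0 for both).

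Region by region, 0 of the 66 BCL2 family regions tested were called under NSD2LDD in KMS11, against 0.0694% of all 69191 regions; 2 of the 66 and 3321 in all passed an unadjusted p under 0.05. In KMS34 the count was also 0, against 0.986% of all regions (4 and 6835 unadjusted), and it was 0 for the difference between lines, against 0.00578% (4 and 4143 unadjusted). The largest difference in KMS11 was in the BCL2 body at chr18:63307801-63308836, 11450 bp downstream of the start. This region was covered by 742 and 689 bases in NSD2LDD at day 4 and by 0 and 577 at day 10, against none in 3 of 4 DMSO libraries and 397 in the other. Peaks were thus more frequent in NSD2LDD than in DMSO, with overlap between the groups, and 1 of the 2 KMS11 day 0 libraries also had one. The log2 difference was 1.62 ± 0.51 (limma adjusted p = 0.423), and with only peaks of −log10 q of 5 or more it passed (2.20, adjusted p = 0.0422). The smallest p in KMS11 was that of another region, 207638 bp downstream of the BCL2 start at chr18:63111741-63112520, named after its values were seen. It held 362 and 356 bases in NSD2LDD at day 4 and 329 and 318 at day 10, against none in either DMSO library of day 4 and 238 and 369 at day 10. All 4 NSD2LDD libraries and 2 of 4 DMSO libraries had a peak, and the values overlapped at day 10. A log2 difference of 1.14 ± 0.24 was fitted (limma adjusted p = 0.118); it passed with fewer (30) bases added (1.90, adjusted p = 0.0152) and in limma without trend and robust (0.0252), in 2 of 31 alternatives. The largest in KMS34 was in the BCL2 body, chr18:63186580-63187320, with 557 and 537 bases in the day 4 NSD2LDD libraries and none in the day 10 NSD2LDD or the DMSO libraries (1.37 ± 0.41, limma adjusted p = 0.158). A peak was also called there in 1 of the 2 KMS34 day 0 libraries. Between the lines the largest difference was at a BCL2L11 region, chr2:111145230-111145780, at −1.96 ± 0.71 (limma adjusted p = 0.469).

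The second comparison set the TKO libraries against KMS11 at day 0, the only other KMS11 group of that day. PMAIP1 and BCL2A1 lost covered bases in TKO, both through peaks outside the gene body, and the other 8 genes were not called. The counts were 2 of 10 lower, against 3.87% of all genes, and 0 of 10 higher, against 1.54% (limma, 2 libraries against 2, with the spread shared by all 11 groups). The median difference of the 10 was −0.05, and that of all genes −0.04. The other 8 differences lay between −0.25 and 0.36.

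PMAIP1 encodes NOXA, a BH3-only protein that binds MCL1. Its window had 1793 and 1396 covered bases in the TKO libraries, against 2972 and 2374 in the KMS11 day 0 libraries. Both TKO libraries lay below both day 0 libraries and below the lowest of the other KMS11 libraries. The log2 difference was −0.87 ± 0.15 (limma adjusted p = 0.0014). The promoter did not carry the difference, since the peak over the start covered 1420 and 1396 bases in TKO, against 1409 and 1212 at day 0. With 5 kb either side the difference was −0.05 and with the body alone 0.05 (limma adjusted p = 0.938 and 0.956), and without scaling to the library median it was −0.68 (0.216).

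The loss was at the 2 ends of the PMAIP1 window. At chr18:59923090-59923902, 23500 bp downstream of the start, the TKO libraries had no called peak, against 506 and 420 covered bases at day 0. All 10 KMS11 libraries other than TKO had a peak there and none of the 10 KMS34 libraries did. The log2 difference was −2.63 ± 0.32 (limma adjusted p = 0.00011), and it passed under each of the 32 alternatives. Where a group is at 0, the size of such a difference depends on the number of bases added before the log, and no fold is given. A group at 0 in both libraries also adds little to the spread shared by all 11 groups. The SE and p of this and other such regions may therefore be too small. Of the 32 alternatives, 22 only leave out 1 library. At chr18:59881672-59882610, 17855 bp upstream, the TKO libraries had 373 and 0 covered bases, against 807 and 742 at day 0. The 2 TKO values were the only ones of this region among the KMS11 libraries under 598, and KMS34 libraries had 342 to 818. The difference of −2.15 ± 0.42 (limma adjusted p = 0.00641) was −1.17 without the second TKO library and −3.11 without the first, and it was not called without the second day 0 library (0.055) or without scaling (0.0636).

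BCL2A1 had 0 covered bases in both TKO libraries, against 545 and 195 in the KMS11 day 0 libraries, and 336 to 543 in the other KMS11 libraries. All of these bases lay in 1 region, chr15:79981832-79982441, 10940 bp upstream of the start. The log2 difference over the window was −1.63 ± 0.46 (limma adjusted p = 0.0496). That call was lost when any 1 of the 12 KMS11 libraries, of the KMS34 NSD2LDD day 4 or of the KMS34 DMSO day 10 libraries was left out (adjusted p of 0.0539 to 0.256), and with other numbers of bases added (0.0809 and 0.0832), with a replicate block (0.0611) and without scaling (0.423). The region alone gave −2.26 ± 0.36 (limma adjusted p = 0.00111) and passed under each of the 32 alternatives. This region was also empty in all 10 KMS34 libraries, so the limit given above for groups at 0 holds for its SE and p too.

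**Figure D2:**
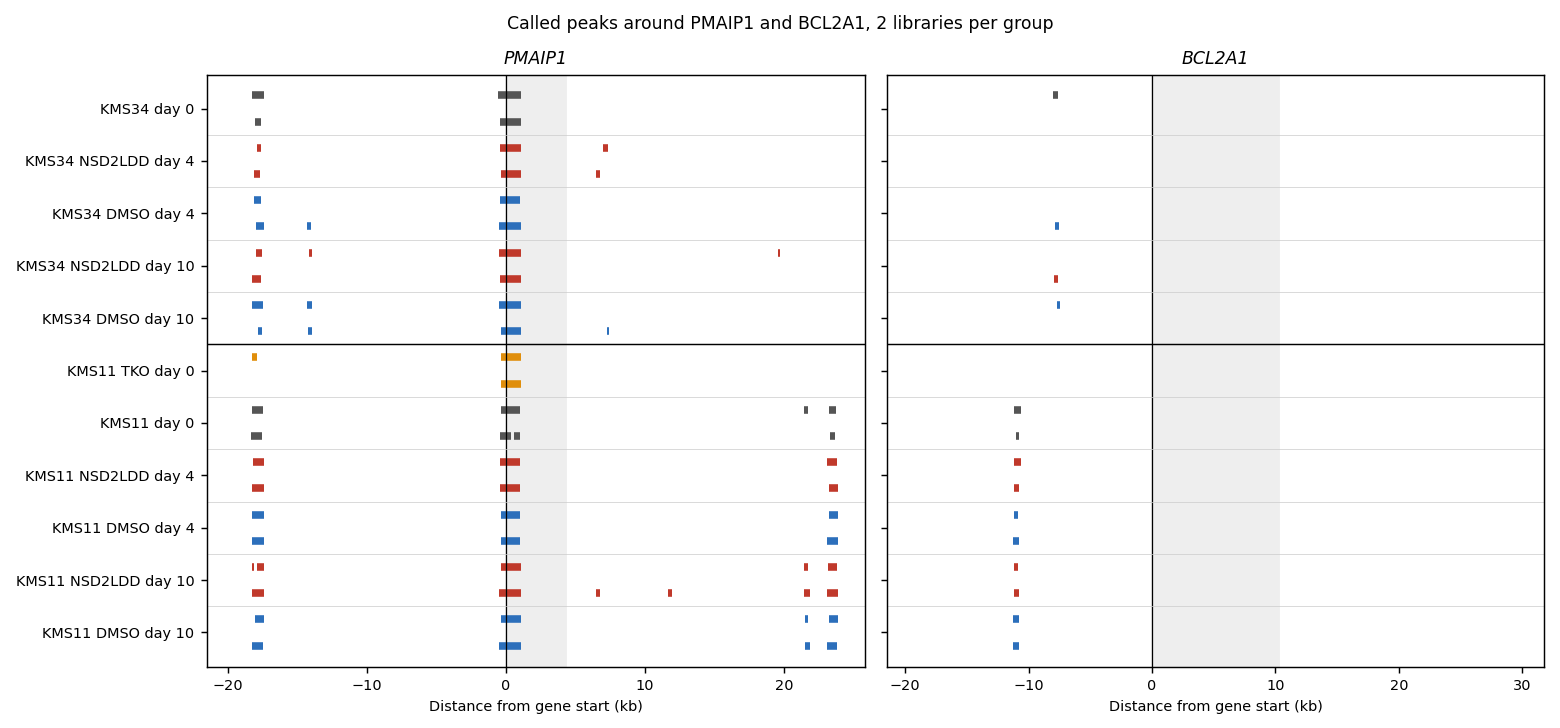
Called peaks around PMAIP1 and BCL2A1 by distance from the gene start (kb, positive downstream), 1 row a library, 2 rows a group, with the gene body shaded and the black horizontal line parting KMS34 from KMS11. The peak 23500 bp downstream of PMAIP1 and the one 10940 bp upstream of BCL2A1 are in all KMS11 groups other than TKO, and in neither TKO nor KMS34 libraries.

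Of the 66 BCL2 family regions tested, 4 were lower in TKO (3.1% of all regions were) and 2 were higher (0.967%). The fourth lower one is in the BCL2 body at chr18:63158637-63159386, named after its values were seen because the rule for naming stops at 5 regions. It was not called in either TKO library, against 286 and 227 covered bases at day 0, and it had a peak in all 10 KMS11 libraries other than TKO and in 0 of 10 KMS34 libraries. The log2 difference was −1.97 ± 0.42 (limma adjusted p = 0.0107). That call was lost without the first TKO library (0.0917), without the second day 0 library (0.0673), and under 4 other alternatives (0.0569 to 0.371).

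The higher regions were 1 near BAK1 and 1 near BCL2. Upstream of BAK1 by 5540 bp, chr6:33585411-33586222 overlaps the genes GGNBP1 and LINC00336 and had 379 and 275 covered bases in TKO, against 0 in both KMS11 day 0 libraries (1.94 ± 0.29, limma adjusted p = 0.000697). The day 0 libraries were the exception here, since the other 8 KMS11 and all 10 KMS34 libraries had a peak; against day 0 and DMSO KMS11 libraries together, a comparison added after the data were seen, the difference was 0.53 (adjusted p = 0.34). Downstream of BCL2, the region described above for NSD2LDD, chr18:63111741-63112520, had 398 and 245 in TKO, against 0 in both day 0 libraries (1.91 ± 0.34, limma adjusted p = 0.00289), and 6 of the 8 other KMS11 and all 10 KMS34 libraries had a peak. Neither higher region passed with only peaks of −log10 q of 5 or more (0.0571 and 0.151) or with lists of equal length (0.836 and 0.298), and the BCL2 region did not pass in a fit of KMS11 alone (0.103). The first TKO list held 30699 peaks and the second 26887, against 36913 and 24979 in the day 0 libraries; the part of list length in these calls was not tested beyond the alternatives given.

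Counted by presence alone, 32 BCL2 family regions had a peak in all 10 KMS11 libraries other than TKO, and 3 of these had none in both TKO libraries. Over all regions that was so for 7.39% of 19773. The 3 were the PMAIP1 downstream, the BCL2A1 upstream and the BCL2 body region, and all 3 had no peak in any KMS34 library, against 28.0% of the regions lost in TKO in all. No gene of the plasma cell, B cell, T and NK cell, myeloid, erythroid or stromal marker lists was called in TKO. Of all genes, 3.87% were lower and 1.54% higher, so few calls would fall in lists this short.

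The third comparison described how the day 0 and DMSO libraries of the lines differ, KMS34 (6 libraries) against KMS11 (6 libraries). Of the 10 genes, 5 were lower in KMS34, against 17.5% of all genes, and 1 was higher, against 23.3%. BID, BCL2A1, PMAIP1, BCL2 and MCL1 were lower and BCL2L1 was higher. The median of the 10 was −0.28 and that of all genes 0.03. Without scaling, the median of all genes was 0.29, 930 genes were lower and 5221 higher (3182 and 4255 with scaling), and BCL2 and MCL1 were not called. KMS34 lists were longer, as given above, and the part of this in the differences was not tested beyond the alternatives.

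BID, which caspase-8 cleaves to link death receptors to mitochondria, differed most. Its window had 0 to 1057 covered bases in KMS34 (median 498), against 1046 to 2287 in KMS11 (median 1590). Only the highest KMS34 library reached the lowest KMS11 library. The log2 difference was −1.80 ± 0.30 (limma adjusted p = 0.000109). Of its 4 tested regions 3 were lower, and the one with the smallest p, chr22:17781265-17782074, 7004 bp upstream of the start, had a peak in 0 of 10 KMS34 libraries, against 12 of 12 KMS11 libraries, TKO included. In the compared libraries it held 0 bases in KMS34, against 476 to 697 in KMS11 (−2.90 ± 0.19, limma adjusted p = 1.08e-08).

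Because BID varied most across the 22 libraries (SD of the log2 value 1.05), the genes with the most similar profile were looked up. These were USP7 (Pearson r = 0.93, Spearman rho = 0.90), DGLUCY (0.91 and 0.83) and AGPAT2 (0.91 and 0.79), over 22 libraries of which 10 are KMS34. The correlations describe libraries that share line and list length, and no p is given.

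PMAIP1 had 1914 to 2716 covered bases in KMS34 (median 2355), against 2374 to 3487 in KMS11 (median 2976). The ranges overlapped, and the difference was −0.61 ± 0.09 (limma adjusted p = 1.93e-05). As in TKO, the downstream region had no peak in KMS34, against 420 to 783 covered bases in KMS11 (−3.04 ± 0.18, limma adjusted p = 6.91e-09). With 5 kb either side the gene was not called (−0.08, adjusted p = 0.571), nor with the body alone (−0.13, 0.426). At BCL2A1 the KMS34 libraries had 0 to 357, against 195 to 545 in KMS11 (−1.18 ± 0.27, limma adjusted p = 0.00183). The region 10940 bp upstream had no peak in KMS34 (−2.45 ± 0.21, limma adjusted p = 1.55e-07). The covered bases of KMS34 lay in another region, 7724 bp upstream at chr15:79978649-79979191, with a peak in 4 of 10 KMS34 and 0 of 12 KMS11 libraries, but the difference there did not pass (0.79 ± 0.42, limma adjusted p = 0.168).

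BCL2 had 3644 to 7585 covered bases in KMS34 (median 6202), against 4091 to 10419 in KMS11 (median 6607). Its difference of −0.42 ± 0.10 (limma adjusted p = 0.00198) came with changes in both directions within the gene, where 8 of its 19 tested regions were lower and 3 higher. The higher one with the smallest p, chr18:63137990-63139384 in the body, held 726 to 1177 bases in KMS34, against 0 in KMS11, and a peak was in 10 of 10 KMS34 and 0 of 12 KMS11 libraries (3.30 ± 0.20, limma adjusted p = 5.66e-09). A body region at chr18:63192264-63193547 ran the other way, with 0 in 5 of 6 KMS34 libraries and 185 in the other, against 532 to 1063 in KMS11 (−2.96 ± 0.23, limma adjusted p = 7.35e-08). The peak at the start was in all libraries of both lines. Without scaling the gene was not called (−0.16, adjusted p = 0.562).

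**Figure D3:**
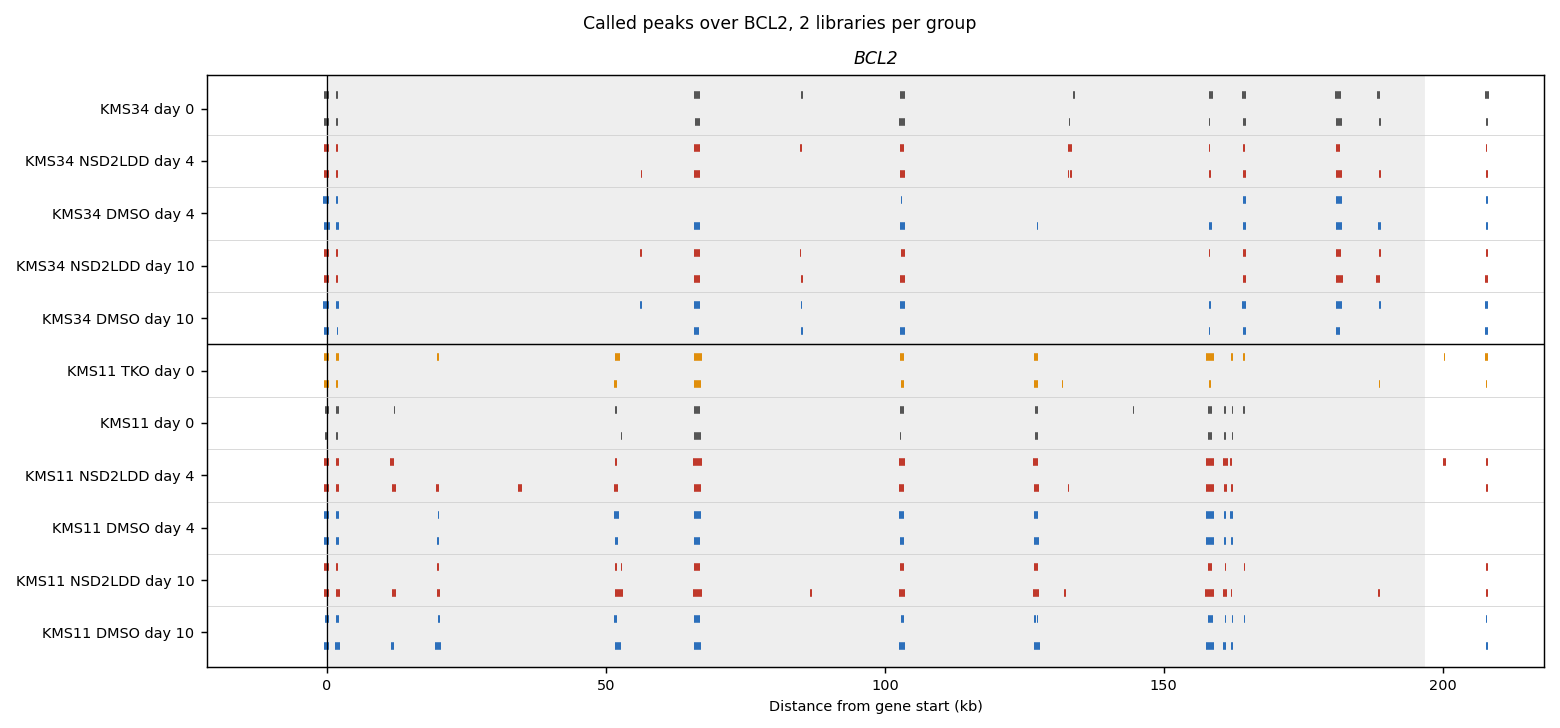
Called peaks over BCL2 by distance from the gene start (kb, positive downstream), 1 row a library, 2 rows a group, the body shaded, KMS34 above the black line and KMS11 below it. Peaks about 181082 bp downstream are in KMS34 and in no KMS11 library, those about 126864 bp downstream are in KMS11 and in 1 KMS34 library, and the peaks at the start, 1564 and 102795 bp are in both lines.

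MCL1 had 2739 to 6083 covered bases in KMS34 (median 4726), against 3164 to 5937 in KMS11 (median 5173). These overlapped almost wholly before scaling, and the scaled difference was −0.37 ± 0.10 (limma adjusted p = 0.00526). It was not called without scaling (−0.11, adjusted p = 0.679), with 5 kb either side (−0.25, 0.0593) or in the body alone (−0.26, 0.214). BCL2L1, the only higher gene, had 4505 to 6727 in KMS34 (median 5602), against 2235 to 5390 in KMS11 (median 3976), with overlap between the lines. The difference was 0.27 ± 0.06 (limma adjusted p = 0.00282), and with lists of equal length it was 0.12 (0.578). Of its 8 tested regions, 3 were higher and 1 lower.

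The 4 remaining genes, BCL2L11, BAX, BAK1 and BBC3, had differences between −0.20 and 0.13 and were not called. At BCL2L11 this did not mean that the peaks matched, as 2 of its 7 tested regions were lower and 1 higher; the higher one (1.18, limma adjusted p = 0.0476) passed in 11 of 30 alternatives. One of the lower ones, chosen after its values were seen, is 20301 bp upstream at chr2:111100061-111101165, within ACOXL, and had a peak in 1 of 10 KMS34 libraries, against 12 of 12 KMS11 libraries (−3.01 ± 0.30, limma adjusted p = 1.09e-06). Of the 4 tested regions of BAK1, 1 was higher, also named after its values were seen, 9806 bp upstream at chr6:33589755-33590408, overlapping LINC00336. It held 186 to 654 bases in KMS34, against 0 in 5 of 6 KMS11 libraries and 391 in the other (1.63 ± 0.48, limma adjusted p = 0.0159). That difference was −0.18 with lists of equal length (adjusted p = 0.737), and it did not pass with only peaks of −log10 q of 5 or more (0.0533) or without the second KMS11 day 0 library (0.0549). None of the 4 tested regions of BAX and none of the 6 of BBC3 was called.

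Over the 66 tested regions, 18 were lower in KMS34 (14.2% of all regions were) and 8 were higher (20.0%). By presence, 1 of the 80 BCL2 family regions, the BCL2 body region above, had a peak in 10 of 10 KMS34 and 0 of 12 KMS11 libraries, against 2.52% of all regions. The reverse, 0 of 10 KMS34 and 12 of 12 KMS11 libraries, was so for 2 of the 80, against 1.76% of all regions. Marker genes also differed, in both directions, where 17.5% of all genes were lower and 23.3% higher. Of the 10 plasma cell markers 4 were higher in KMS34, among them SDC1 (1.36 ± 0.13, limma adjusted p = 3.11e-07), and 2 were lower, among them JCHAIN (−1.61 ± 0.26, adjusted p = 9.58e-05). Of 5 markers each, 2 B cell markers were higher, 1 T and NK cell marker was lower and 2 erythroid markers were lower, while 3 of 5 myeloid and 3 of 4 tested stromal markers were higher. Summed covered bases were 3543 to 6018 in KMS34, against 1800 to 3698 in KMS11, for the myeloid list, and 3717 to 8448 in KMS34, against 1439 to 3949 in KMS11, for the stromal list, whose marker LUM had no peak in any library. Their part in the differences at the BCL2 family was not tested.

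**Figure D4:**
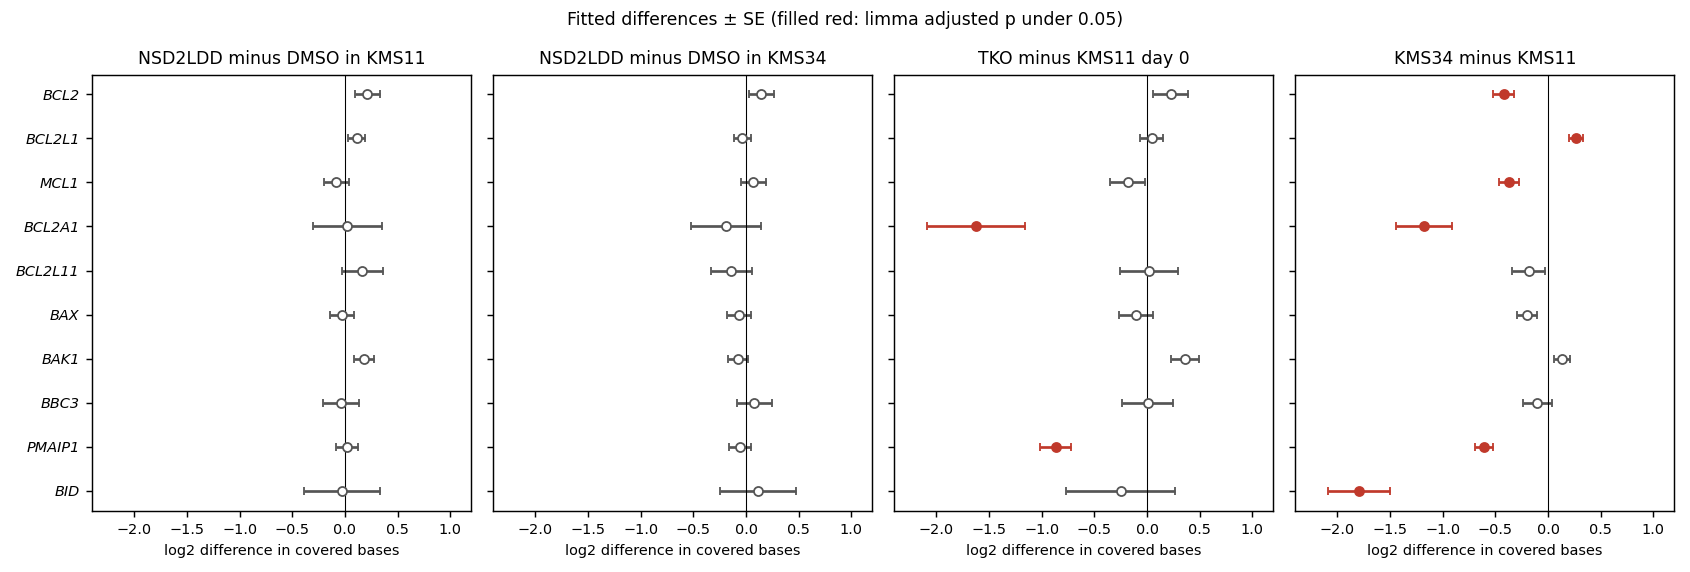
Fitted log2 differences in covered bases for the 10 genes in 4 comparisons, with bars of 1 SE; filled red points passed a limma adjusted p of 0.05. No gene passed for NSD2LDD in either line, PMAIP1 and BCL2A1 passed in TKO, and 6 genes passed between KMS34 and KMS11.

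A list of 28 other genes of the mitochondrial pathway was read beside the BCL2 family, with 27 tested. None was called under NSD2LDD in either line, against 0.011% of all genes in KMS11 and 0.0165% in KMS34. In TKO 0 were lower, against 3.87% of all genes, and 1 was higher, against 1.54%. The higher gene was BIRC2, an inhibitor of apoptosis protein. It had 1631 and 2471 covered bases in TKO, against 1478 and 657 at day 0 (0.70 ± 0.18, limma adjusted p = 0.0298). The other KMS11 libraries had 1705 to 2290 in DMSO and 1513 to 2500 in NSD2LDD, so the day 0 libraries were the low ones. Between KMS34 and KMS11, 6 of the 27 were lower, against 17.5% of all genes, and 2 were higher, against 23.3%. The list median was −0.06 against 0.03 over all genes. The BH3-only gene HRK was higher, with 1022 to 2713 covered bases in KMS34, against 366 to 551 in KMS11 (1.40 ± 0.19, limma adjusted p = 1.11e-05), and its ranges did not overlap between the lines. BCL2L13 (−0.62 ± 0.10, limma adjusted p = 8.25e-05) and the BH3-only gene BIK (−1.04 ± 0.20, adjusted p = 0.000516) were the lower ones with the smallest p.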

How the data were processed

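ATAC-seq peaks of 22 libraries were analysed. Per the submitters' processing notes, fastp, BWA, SAMtools, Picard, MACS3 and deepTools were used on hg38; no version, Tn5 shift or calling setting is given there. The authors called peaks in each library separately. Left aside were the deposited score, which is the −log10 q times 10 without its decimals, and the deposited fold enrichment, a ratio over the caller's own background. The deposited −log10 q (2.0 or more in the lists) was used for ranks and filters inside 1 list. Bases covered by peaks were counted per protein-coding gene (RefSeq, GRCh38.p14; body and 20 kb either side) and per merged region, and the counting was checked with bedtools 2.31.1 on simulated windows. Genes and regions covered in at least 2 libraries were tested with limma 3.58.1 (trend, robust; R 4.3.3), also tested on simulated data, on log2 of covered bases plus 200 (genes) or 100 (regions), less the library median over features covered in all libraries, with 1 mean for each of the 11 groups and Benjamini-Hochberg adjustment at 0.05. Members, lists and rules were chosen with earlier results of these data known. In each comparison, called members are named, otherwise the 2 largest differences, with at most 5 called regions and 4 pathway genes (1 of these is not reported here), and for likeness the 3 genes closest to the most variable member. Alternatives are given in the closing section. Exons were not used here; MCL1 had no start in the promoter table. The rest ran in Python 3.11.15 (pandas 2.3.3, numpy 2.4.6, matplotlib 3.10.9).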

Additional observations from a re-analysis of the deposited data

How the results depend on the processing

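Among results past or short of the threshold, the direction held under most alternatives and the list of called genes depended on the window. The count of called genes in TKO, 2 as reported, was 1 with fewer (50) or more (1000) bases added and with the replicate block, 0 without scaling, 0 with 5 kb either side and 0 with the body alone, and 1 to 2 with 1 library left out. Between KMS34 and KMS11 it was 6, and 3 both with 5 kb either side and with the body alone; leaving out 1 library gave 6 to 7. Called regions under NSD2LDD in KMS11, 0 as reported, were 1 with peaks of −log10 q of 5 or more, 1 with fewer (30) bases added and 1 in limma without trend and robust, the last 2 being the region downstream of BCL2. Those in KMS34 and in the difference between lines were 0 to 1 with 1 library left out, 1 only without the second KMS34 DMSO library of day 4. Called regions in TKO were 6, 3 with −log10 q of 5 or more, and 5 to 8 with 1 library left out; between KMS34 and KMS11 they were 26, and 20 to 29. Without scaling, TKO had 156 genes lower and 29 higher in all, against 705 and 280, with a median of 0.14 against −0.04. The direction of 4 values turned: the BAK1 region higher in KMS34 was −0.18 with lists of equal length; BCL2A1 under NSD2LDD in KMS34 was 0.0136 with −log10 q of 5 or more, 0.0466 with lists of equal length, and −0.52 to 0.14 with 1 library left out; the line difference of BCL2L11 was 0.13 with lists of equal length; and PMAIP1 in TKO was 0.0542 with the body alone. The cause was not tested, except that the narrower windows leave out the distal regions. With a share of 0.5 of a region required to be covered, 4 regions were called in all 22 libraries in place of 19. With the replicate block, the BCL2L11 region higher in KMS34 was also not called (1.18, limma adjusted p = 0.0566). Among the other BCL2 family genes and regions followed through the alternatives, the block changed no call. Titles number replicates 1 and 2 only, nothing ties a number to a shared culture, and deviations of same-numbered libraries correlated between −0.11 and 0.26.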
